A study of Mus musculus with 4 samples.

Results

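The tripartite motif (TRIM) genes encode one of the large families of ubiquitin ligases. All single-gene probe sets whose platform symbol is Trim followed by a number were taken, except those of Trim7, Trim21, Trim25 and Trim30a. This gave 47 genes, measured by 74 probe sets, out of 17097 genes measured by 45037 probe sets in all. Where a gene had several probe sets, the brightest on average across the 4 arrays stood for it. The RNA came from samples labelled as B cells, isolated from lymph nodes by magnetic removal of other cells. The mice were male Balb/C (an inbred strain), aged 6 to 8 weeks. Of these, 2 mice carried a miR-146a transgene (TG) and 2 were wild type (WT), with 1 Affymetrix array per mouse. The promoter that drives the transgene and the number of founder lines are not given in the sources used here. miR-146a is a microRNA that restrains Toll-like receptor and NF-kB signalling. Its mature 5′ strand is shown because the transgene is named for it, with the seed (bases 2 to 8), which pairs with target transcripts, in capitals (RefSeq, GRCm38.p6, chr11:43374435-43374456, minus strand).
mmu-miR-146a-5p: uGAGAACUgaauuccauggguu

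A typical TRIM protein joins a RING finger, which binds the ubiquitin-carrying E2 enzyme, to B-box zinc fingers, a coiled coil through which it pairs with another copy, and a variable C-terminal domain that chooses the target. Several members tag sensors and adaptors of virus recognition with ubiquitin, many of them are themselves induced by interferon, and others act in the nucleus on chromatin. Family members outside the immune system work at muscle sarcomeres, on microtubules of neurons or in red cell precursors.

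The data set has few arrays, and its TG arrays differed more from each other than its WT arrays did. Across probe sets the WT arrays correlated at r = 0.9984 and the TG arrays at r = 0.9893. TG mouse 2 correlated better with the WT arrays (r = 0.9912 and 0.991) than with TG mouse 1. TG mouse 1 correlated with each WT array at r = 0.9811. TG mouse 1 had the lowest upper quartile, 6.14 on the log2 scale, against 6.51 for TG mouse 2 and 6.55 and 6.56 for the WT mice. The labelled cell type was checked by 14 B cell markers of 15 listed, all detected, the dimmest being Pax5 at 4.33 and 4.56 in TG mice and 4.91 and 4.67 in WT mice. All 14 were lower in both TG arrays than in both WT arrays (median difference -1.01). Their summed linear signal was 8566 and 9409 in TG mice, against 16845 and 17629 in WT mice. Markers of other cells were present, and those of T cells were bright. The median of the T cell markers' means over the 4 arrays was 9.94, beside 9.36 for the B cell markers. The 12 T cell markers summed to 14652 and 16549 in TG mice and 12211 and 12422 in WT mice. The 14 neutrophil markers summed to 1749 and 2392 in TG mice and 478 and 476 in WT mice. Of these markers 10 of 12 and 12 of 14 were higher without overlap, as were 8 of 12 of monocytes, macrophages and dendritic cells and 17.7% of all genes. Cd4 (difference -0.79), Flt3 (-0.36) and Itgax (-0.50) were lower without overlap, and among these 3 kinds of marker only the neutrophil genes Chil3 and Ngp passed the test. In such bulk samples, fewer cells of a type and less RNA per cell cannot be told apart in anything that follows.

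Signal clearly above background was found for 33 of the 47 genes, meaning a mean at least 1 log2 unit above the non-specific control probe sets, which averaged 2.87. The other 14 lay between 2.78 and 3.69. These were Trim2, Trim5, Trim6, Trim8, Trim12a, Trim16, Trim31, Trim42, Trim47, Trim54, Trim63, Trim66, Trim67 and Trim71, and differences among such dim probe sets are compressed. Trim40 was just inside the limit at 3.87 and Trim31 just outside it at 3.69. The signals of different probe sets depend on their probes, so the order from dim to bright does not rank the amounts of transcript.

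**Figure D1:**
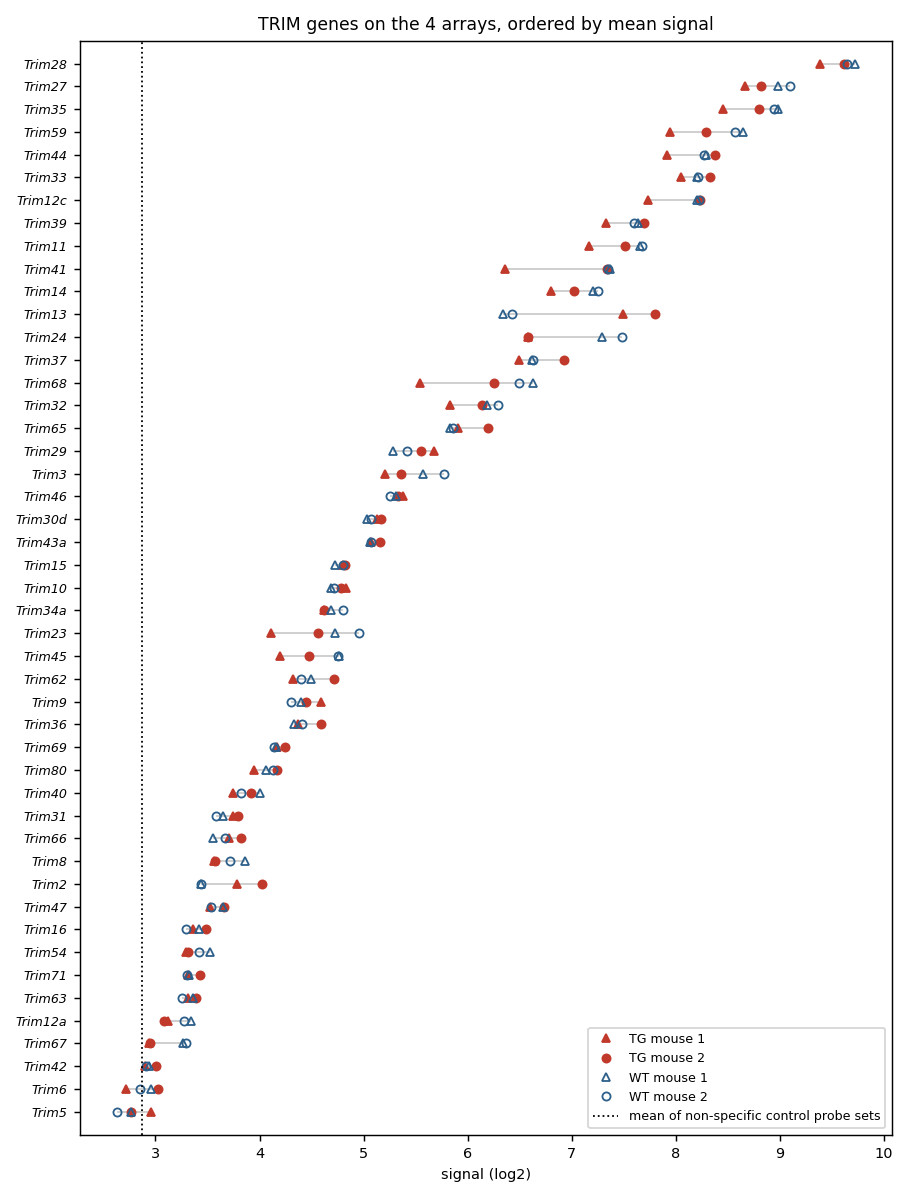
Signal of each TRIM gene on each array (log2, x axis), 1 row per gene ordered by mean signal, with TG mice as filled symbols, WT mice as open symbols and the mean of the non-specific control probe sets as a dotted line. Trim13 is the row in which both TG mice lie far to the right of both WT mice, Trim24 the reverse, and in 41 of the 47 rows TG mouse 1 lies left of TG mouse 2, as it does for 74.2% of all genes.

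None of the 47 genes passed the test. By limma with Benjamini-Hochberg adjustment over all 45037 probe sets, 0 were called higher and 0 lower at an adjusted p of 0.05, and their smallest adjusted p was 0.105. The background was low as well, with 0.0351% of the 17097 genes called higher and 0.0117% called lower. At an unadjusted p under 0.05, 9 of the 47 genes counted, against 14.1% of all genes. Without overlap between the groups, 11 TRIM genes (23.4%) were higher and 18 (38.3%) lower in TG mice, against 17.7% and 31.4% of all genes, so both shares were near the background. Among the 33 brighter genes the counts were 8 (24.2%) and 14 (42.4%), against 15.8% and 36.4% of 12885 brighter genes. The median difference of the 47 was -0.03, beside -0.05 over all genes, and both medians were above 0 under quantile normalization (0.0086 for the 47, 0.02 for all genes) and median centring (0.02 for the 47, 0.001 for all genes). These scalings also moved the split without overlap. It was 17 higher and 14 lower after quantile normalization, against 29.5% and 24.5% of all genes, and 18 higher and 17 lower after median centring, against 24.5% and 28.5% of all genes.

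**Figure D2:**
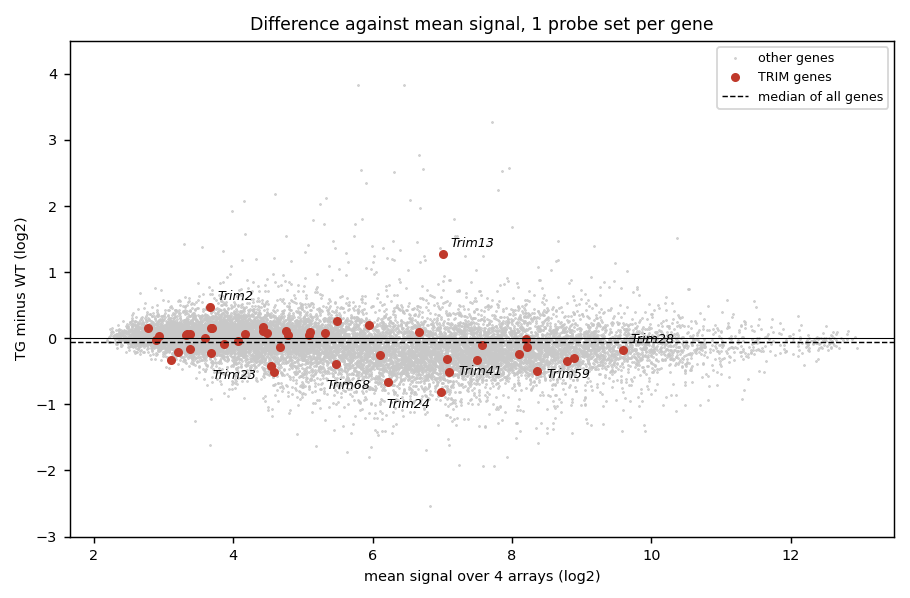
Difference between TG and WT means (log2, y axis) against the mean signal over 4 arrays (log2, x axis) for each of 17097 genes, with the TRIM genes in red and the median of all genes as a dashed line. Trim13, at 1.27, and Trim24, at -0.81, lie at the edges of the TRIM genes, most of which sit inside the cloud of other genes.

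Trim13 had the largest difference of the family. It encodes a ubiquitin ligase anchored in the membrane of the endoplasmic reticulum, where it takes part in the removal of misfolded proteins and in autophagy, and its human counterpart lies in the segment often lost in chronic lymphocytic leukaemia, a B cell cancer. Its probe set gave 7.49 and 7.80 in TG mice, against 6.34 and 6.42 in WT mice. Both TG mice were above both WT mice by about 1 log2 unit or more. The means were 7.65 ± 0.22 in TG mice and 6.38 ± 0.06 in WT mice (SD, n = 2 each), a 2.41-fold higher signal (log2 difference 1.27, SE 0.14, limma adjusted p = 0.105). It was the 45th highest difference among 12885 brighter genes. After quantile normalization the difference was 1.47 and passed (limma adjusted p = 0.0112), as it did after median centring (1.32, limma adjusted p = 0.018), settings under which 1.93% and 1.36% of all probe sets passed. Over all alternatives its limma adjusted p ran from 0.0018, without TG mouse 2, where 42.4% of all probe sets passed, to 1, without either WT mouse, and its difference from 1.11 to 1.47.

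The gene has 1 probe set on the array, so no second one could be set beside it. In the RefSeq annotation of GRCm38.p6 the nearest genes with a single-gene probe set are Spryd7 on one side and Dleu2, a long non-coding RNA, on the other. Spryd7 gave 5.94 and 5.92 in TG mice, against 5.60 and 5.74 in WT mice (log2 difference 0.26, limma adjusted p = 0.394). The brightest probe set of Dleu2 gave 5.93 and 6.23 in TG mice, against 6.01 and 6.06 in WT mice, and so overlapped (log2 difference 0.04, limma adjusted p = 0.913). Most measured markers of T cells (10 of 12) and neutrophils (12 of 14) were also higher without overlap on these TG arrays. So were 8 of 12 markers of monocytes, macrophages and dendritic cells, whereas Cd4, Flt3 and Itgax were lower without overlap. The part of such markers in the Trim13 difference was not tested.

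The TIF1 group holds nuclear members that carry a PHD finger and a bromodomain. Trim24, which binds nuclear receptors and can mark p53 with ubiquitin, was the lowest member of the family. Its brightest probe set gave 6.58 and 6.58 in TG mice, against 7.29 and 7.48 in WT mice. The TG mice were nearly equal and both lay below both WT mice, a 1.75-fold lower signal (log2 difference -0.81, SE 0.11, limma adjusted p = 0.136). Its other probe sets pointed the same way by less, with 5.44 and 5.29 in TG mice against 5.62 and 5.45 in WT mice (difference -0.17), and 3.94 and 4.15 in TG mice against 4.22 and 4.35 in WT mice (difference -0.24). The mean of its 3 probe sets differed by -0.41 (limma adjusted p = 0.195). Its brightest probe set differed by -0.60 after quantile normalization and by -0.76 after median centring. With 1 TG mouse left out, the spread comes from the WT pair alone and 9.19% (without TG mouse 1) or 42.4% (without TG mouse 2) of all probe sets passed, Trim24 among them, so these passes say little about it. Without WT mouse 1 the difference of its brightest probe set was -0.91, and without WT mouse 2 it was -0.71. B cell markers were lower on the same arrays by a median of 1.01, and their part in the Trim24 difference was not tested.

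Trim28, the co-repressor that KRAB zinc finger proteins bring to DNA and that silences endogenous retroviruses, gave 9.38 and 9.62 in TG mice, against 9.72 and 9.64 in WT mice. TG mouse 2 lay just below the lower WT mouse (log2 difference -0.18, SE 0.12, limma adjusted p = 0.565). After quantile normalization the difference of Trim28 was -0.05, and after median centring -0.13. Its second probe set, 9.15 and 9.27 in TG mice against 9.58 and 9.66 in WT mice, differed by -0.41 (limma adjusted p = 0.244). Trim33, a partner of Smad4 in TGF-beta signalling, gave 8.05 and 8.33 in TG mice, against 8.20 and 8.21 in WT mice. The WT mice lay between the TG mice (log2 difference -0.02, limma adjusted p = 0.97). Trim66, a testis member of the group, was dim and differed by 0.15.

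Genes that work with Trim28 in silencing were also measured. Of 14 listed, 12 were measured, 0 passed in either direction, 2 were higher and 3 lower without overlap (17.7% and 31.4% of all genes), and the median difference was -0.06. Setdb1, the histone methyltransferase that Trim28 recruits, overlapped and differed by 0.0024. Chd4, a remodelling helicase of the same pathway, gave 7.54 and 8.43 in TG mice, against 8.85 and 8.82 in WT mice (log2 difference -0.86, limma adjusted p = 0.345), with TG mouse 1 far below the rest. Its relative Chd3 gave 8.40 and 8.54 in TG mice, against 8.14 and 8.19 in WT mice (difference 0.31, limma adjusted p = 0.331). Hdac1, a histone deacetylase, differed by -0.19 and Morc3, a nuclear ATPase, by -0.32.

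The rodent cluster of TRIM5 relatives, which are best known as factors against retroviruses, was represented by 6 genes (Trim5, Trim6, Trim12a, Trim12c, Trim30d and Trim34a), of which Trim12c, Trim30d and Trim34a were above background. Their median difference was -0.08, with 1 higher and 2 lower without overlap (17.7% and 31.4% of all genes). Trim12c gave 7.73 and 8.23 in TG mice, against 8.20 and 8.23 in WT mice. TG mouse 2 was level with the WT mice and TG mouse 1 alone was lower (log2 difference -0.23, SE 0.19, limma adjusted p = 0.62). Trim30d gave 5.12 and 5.16 in TG mice, against 5.03 and 5.07 in WT mice (difference 0.09). Trim34a gave 4.61 and 4.61 in TG mice, against 4.69 and 4.80 in WT mice (difference -0.13). These genes are relatives of each other, so some of their probe sets may read more than 1 of them, which was not tested.

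The promoters of this cluster share a sequence feature that the choice of members did not use. The motif GAAANNGAAA, the core of the interferon-stimulated response element, was searched on both strands of the 300 bases from 250 before to 50 after each RefSeq gene start. It was found in 5 of the 6 cluster genes and in 1 of the 31 other TRIM genes with a promoter sequence, Trim2, and 10 TRIM genes had none to search. Over 27025 genes 3.99% held it, and over 32851 promoters 3.44%. Among the interferon-stimulated genes described below, 6 of the 16 with a promoter sequence held it (37.5%). Stretches of 30 bases are shown in the direction of the gene, with the motif, which lies on the opposite strand, in capitals. They are at chr7:104353359-104353388 (Trim12c, minus strand), chr7:104315466-104315495 (Trim12a, minus), chr7:104288136-104288165 (Trim5, minus), chr7:104244457-104244486 (Trim34a, plus) and chr7:104507871-104507900 (Trim30d, minus) in GRCm38.p6.
Trim12c: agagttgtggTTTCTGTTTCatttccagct
Trim12a: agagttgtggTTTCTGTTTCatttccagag
Trim5: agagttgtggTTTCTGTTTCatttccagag
Trim34a: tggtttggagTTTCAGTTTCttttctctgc
Trim30d: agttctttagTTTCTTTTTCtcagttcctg
The stretches of Trim12a and Trim5 equal that of Trim12c in 28 of 30 bases, and those of Trim34a and Trim30d in 18 and 14. A match describes these letters and is no evidence that a factor binds. The 6 TRIM genes with the motif differed by -0.23 to 0.47 with a median of -0.02, and the 31 without it by -0.81 to 1.27 with a median of -0.03. Among the 6, Trim2, Trim5 and Trim12a were dim, so their differences are compressed, and the largest, 0.47, was that of Trim2.

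Interferon-stimulated genes from other families were set beside the cluster. Of 24 measured, 18 were lower and 1 higher without overlap, against 31.4% and 17.7% of all genes, 0 passed, and the median difference was -0.56. Irf7, the factor that amplifies interferon production, gave 7.46 and 7.70 in TG mice, against 8.68 and 8.64 in WT mice (log2 difference -1.08, limma adjusted p = 0.105). Mx1, an antiviral GTPase, gave 5.27 and 5.78 in TG mice, against 6.84 and 6.66 in WT mice (difference -1.22). Oas2 and Oasl1, relatives in the oligoadenylate synthetase family, differed by -0.92 and -0.90. None of the 6 cluster genes differed by as much as the median of that list. However, only Trim12c, Trim30d and Trim34a of them were above background, against 22 of the 24 interferon-stimulated genes. Differences of the other, dim cluster genes are compressed. The difference between the lists was not tested.

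Another 14 members act in innate immune signalling outside that cluster. Their median difference was -0.24, with 4 higher and 8 lower without overlap, against 17.7% and 31.4% of all genes, and 12 of them were above background. Trim68, a co-activator of the androgen receptor that also regulates interferon production, gave 5.54 and 6.25 in TG mice, against 6.62 and 6.49 in WT mice. Both TG mice were lower, mouse 1 by far the more (log2 difference -0.66, SE 0.25, limma adjusted p = 0.369). Trim59, a membrane-anchored member linked to cell proliferation, gave 7.95 and 8.29 in TG mice, against 8.65 and 8.57 in WT mice (difference -0.49, SE 0.15, limma adjusted p = 0.296). Its second probe set differed by -0.37. Trim23, which carries an ARF-like GTPase domain, gave 4.11 and 4.56 in TG mice, against 4.73 and 4.95 in WT mice (difference -0.51, SE 0.19, limma adjusted p = 0.362).

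Trim27, Trim35, Trim14 and Trim32 were lower by 0.25 to 0.34 log2 units in the deposited values. After quantile normalization the differences of Trim27, Trim35 and Trim14 were -0.14, -0.18 and -0.10, and after median centring -0.24, -0.28 and -0.27. Trim27, first known as the fusion partner of the RET oncogene, gave 8.67 and 8.82 in TG mice, against 8.98 and 9.10 in WT mice (difference -0.30, SE 0.11, limma adjusted p = 0.367). Trim35, linked to cell death and blood cell differentiation, gave 8.45 and 8.80 in TG mice, against 8.98 and 8.94 in WT mice (difference -0.34). Trim14, which lacks a RING finger and supports RNA and DNA sensing, gave 6.80 and 7.02 in TG mice, against 7.21 and 7.25 in WT mice (difference -0.32). In these 3 genes, as in Trim32, the groups did not overlap and TG mouse 1 was the lowest array. Trim32, a ligase with NHL repeats that is mutated in a human muscular dystrophy, gave 5.83 and 6.14 in TG mice, against 6.18 and 6.29 in WT mice (difference -0.25).

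On the higher side of the group, below Trim13, stood Trim29 and Trim65. Trim29, an epithelial member without a RING finger, gave 5.68 and 5.55 in TG mice, against 5.29 and 5.42 in WT mice (difference 0.26, limma adjusted p = 0.401). Trim65, which marks the RNA sensor MDA5 with ubiquitin, gave 5.90 and 6.19 in TG mice, against 5.83 and 5.86 in WT mice (difference 0.20, limma adjusted p = 0.556). The remaining members, Trim8, Trim31, Trim40 and Trim62, differed by -0.22 to 0.15.

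Sensors and adaptors of cytosolic RNA and DNA, the pathway these ligases regulate, were measured for 14 of 18 listed names. None passed, 7 were lower and 0 higher without overlap, against 31.4% and 17.7% of all genes, and the median difference was -0.20. All 14 were above background. Of the brighter genes 36.4% were lower and 15.8% higher without overlap, with a median difference of -0.10. Against the WT mean, the median of the 14 was -0.32 in TG mouse 1 and -0.03 in TG mouse 2. Over the brighter genes these medians were -0.22 and 0.01. Dhx58, an RNA helicase of the RIG-I family, had the largest, with 6.32 and 6.90 in TG mice, against 7.65 and 7.72 in WT mice (difference -1.08, limma adjusted p = 0.191). Rnf135, a ligase closely related in sequence to the TRIM proteins, differed by -0.47, Ifih1, which encodes MDA5, by -0.43 and Otud5, a deubiquitinase, by -0.21.

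The NHL-repeat members include RNA-binding and neuronal proteins. Trim3, a brain ligase that binds a motor protein, gave 5.20 and 5.36 in TG mice, against 5.57 and 5.77 in WT mice (difference -0.39, SE 0.13, limma adjusted p = 0.315). Trim2, which acts on neurofilaments in neurons, gave 3.79 and 4.02 in TG mice, against 3.44 and 3.44 in WT mice (difference 0.47, SE 0.12, limma adjusted p = 0.252). Both WT values of Trim2 were within 1 log2 unit of background, so its size is poorly measured. Trim71, known from embryonic cells, was dim and differed by 0.06.

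Members best known from muscle, neurons and red cell precursors differed by -0.34 to 0.17. Trim54 and Trim63, muscle RING finger proteins, gave 3.29 and 3.31 in TG mice against 3.52 and 3.42 in WT mice, and 3.31 and 3.39 in TG mice against 3.36 and 3.25 in WT mice. Trim10, needed for red cell maturation, gave 4.83 and 4.78 in TG mice, against 4.69 and 4.71 in WT mice (difference 0.11, limma adjusted p = 0.657). Of the members that bind microtubules in neurons, Trim9 gave 4.59 and 4.44 in TG mice against 4.40 and 4.30 in WT mice (difference 0.17), and Trim46 gave 5.38 and 5.33 in TG mice against 5.31 and 5.25 in WT mice (difference 0.07). Trim36 differed by 0.11 and the dim Trim67 by -0.34. The 10 measured markers of erythroid cells and platelets had a median difference of 0.05 and none passed. Without overlap 4 were higher and 2 lower (17.7% and 31.4% of all genes). Hba-a1 (0.34), Klf1 (0.30), Alas2 (0.28) and Ppbp (0.26) were the higher ones, and Itga2b (-0.32) and Gp1bb (-0.20) the lower ones.

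The other 13 members had a median difference of -0.0008, with 1 higher and 3 lower without overlap (17.7% and 31.4% of all genes), and all 13 were lower in TG mouse 1 than in TG mouse 2, as were 74.2% of all genes. Trim41, a ligase that acts on protein kinase C, had the widest gap between the TG mice, with 6.35 and 7.34 in TG mice, against 7.36 and 7.35 in WT mice. On this probe set TG mouse 2 was level with the WT mice, and the difference of -0.51 (SE 0.34, limma adjusted p = 0.554) was -0.01 without TG mouse 1. On its second probe set, with 4.67 and 5.12 in TG mice against 5.45 and 5.41 in WT mice, both TG mice were lower (difference -0.53, SE 0.17, limma adjusted p = 0.313). Trim11, which helps clear misfolded proteins, gave 7.17 and 7.51 in TG mice, against 7.66 and 7.68 in WT mice (difference -0.33, limma adjusted p = 0.425). After quantile normalization the difference of Trim11 was -0.14, and after median centring -0.27. Trim45, a brake on MAP kinase and NF-kB signalling, gave 4.20 and 4.48 in TG mice, against 4.76 and 4.76 in WT mice (difference -0.42, SE 0.13, limma adjusted p = 0.305).

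Trim39 and Trim44 overlapped between the groups. Trim39, which delays the destruction of cell cycle proteins, gave 7.33 and 7.69 in TG mice, against 7.63 and 7.60 in WT mice (difference -0.11). Trim44, which resembles a deubiquitinase, gave 7.92 and 8.37 in TG mice, against 8.29 and 8.27 in WT mice (difference -0.14), and its dimmer probe set differed by 0.34. Trim37, a ligase of centrioles and peroxisomes, had 5 probe sets that differed by -0.31 to 0.42. Trim69, a testis member that binds microtubules, was barely separated at 4.17 and 4.25 in TG mice against 4.16 and 4.13 in WT mice. The rest of these, Trim15, Trim16, Trim42, Trim43a, Trim47 and Trim80, differed by -0.04 to 0.07.

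Agreement between probe sets could be read for the 17 members with more than 1. All probe sets had 1 sign in 12 of them, and of the 10 members with more than 1 probe set above background 8 agreed in sign over those. Trim37 and Trim44 were the exceptions. Trim24, Trim28, Trim35, Trim41 and Trim59 had a negative difference on every probe set, and Trim62 and Trim36 a positive one of at most 0.11.

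The TG mice differed from each other more than the WT mice did. The median gap between the TG mice was 0.17, against 0.07 between the WT mice, and 41 of the 47 genes (87.2%) were lower in TG mouse 1 than in TG mouse 2, as were 74.2% of all genes. The largest gap between the WT mice in any TRIM gene was 0.23, in Trim23. Measured by that yardstick, 17 genes in TG mouse 1 and 7 in TG mouse 2 lay further below the WT mean, and 5 in each TG mouse lay further above it. Over all genes 39.8% in TG mouse 1 and 12.2% in TG mouse 2 lay that far below, and 11.6% and 13% that far above. Among the 47 genes Trim13 and the dim Trim2 were that far above in both TG mice. The 7 genes that far below in TG mouse 2 were also that far below in TG mouse 1. They were Trim3, Trim23, Trim24, Trim45, Trim59, the dim Trim67 and Trim68. The share of all genes that far out in both TG mice was not counted, so these counts have no background beside them.

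**Figure D3:**
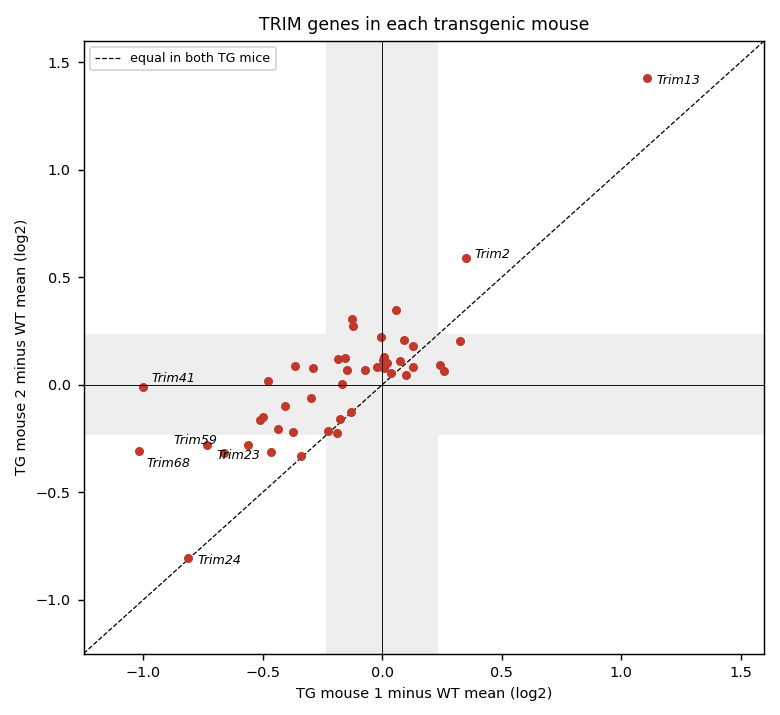
Each TRIM gene in TG mouse 1 (x axis) and TG mouse 2 (y axis), as the difference from the WT mean (log2). The grey bands mark the largest gap between the WT mice in any TRIM gene, 0.23, and the dashed line marks equal values. Trim13 and Trim24 stand outside both bands near the line, whereas Trim41 lies far to the left for TG mouse 1 and inside the band in TG mouse 2.

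Family members and related genes that carry other symbols, such as Bspry and Fsd1, included Pml, whose difference was as large as that of Trim13, in the other direction. Of 7 measured, 0 passed, 3 were lower and 1 higher without overlap (31.4% and 17.7% of all genes), and the median difference was 0.05. Pml (TRIM19), which builds nuclear bodies and is induced by interferon, gave 7.02 and 7.29 in TG mice, against 8.40 and 8.49 in WT mice. Both TG mice were lower by over 1 log2 unit (difference -1.29, SE 0.13, limma adjusted p = 0.0935), and its second probe set gave 6.49 and 6.98 in TG mice, against 8.08 and 8.01 in WT mice (difference -1.31, limma adjusted p = 0.136). Bspry, a B-box protein of epithelia, differed by -0.33, Rnf207 by -0.11 and Mid2, a microtubule-binding relative near background, by 0.14.

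The E2 enzymes that hand ubiquitin to TRIM ligases were measured for 10 of 11 listed names. None passed, 2 were higher and 4 lower without overlap (17.7% and 31.4% of all genes), and the median difference was -0.04. Ube2v1 and Ube2n, which together build the chains used in NF-kB signalling, gave 8.67 and 8.67 in TG mice against 9.19 and 9.15 in WT mice (difference -0.50, limma adjusted p = 0.185), and 8.55 and 8.67 in TG mice against 8.83 and 8.99 in WT mice (difference -0.30, limma adjusted p = 0.37). Ube2d3, a general E2 enzyme, gave 11.32 and 11.31 in TG mice, against 10.94 and 11.03 in WT mice (difference 0.33, limma adjusted p = 0.295). Ube2w, which can modify the N-terminus of proteins, differed by -0.28.

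**Figure D4:**
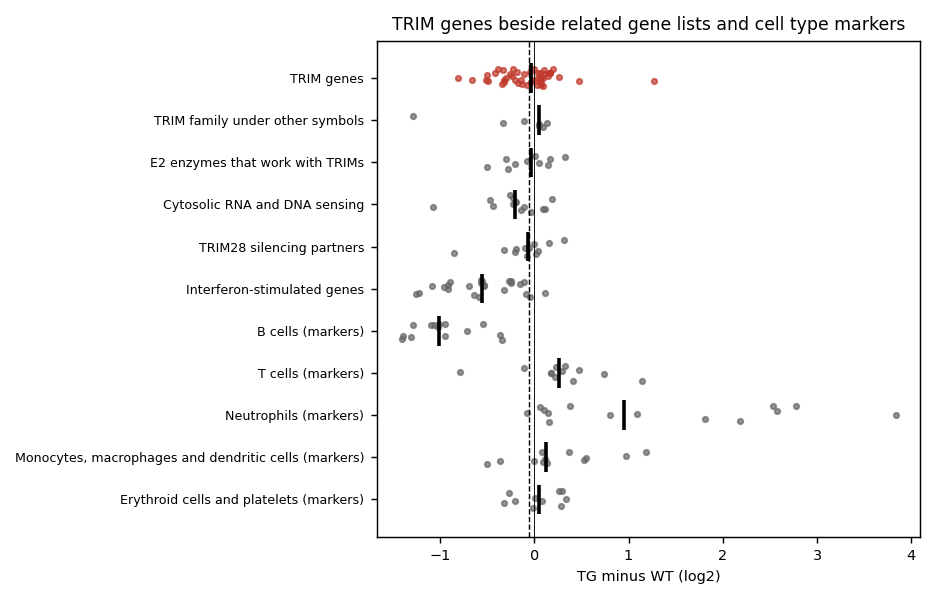
Differences between TG and WT means (log2, x axis) for the TRIM genes (red), the related lists and the cell type markers (grey), 1 point per gene, with the median of each list as a black bar and that of all genes as a dashed line. The TRIM genes centre near the median of all genes, at -0.03, while interferon-stimulated genes and B cell markers centre at -0.56 and -1.01.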

How the data were processed

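The authors deposited log2 signals, 1 value per probe set and array, between 2.01 and 13.03. That scale was inferred from their range. Background correction, normalization and probe summary are not given in the sources used here. Genes were named from the platform annotation, and all 47 members matched RefSeq (GRCm38.p6) by Entrez ID with no change of symbol. The 104 control probe sets were left out, and 5 TRIM probe sets that carry several genes were not used. The difference between TG and WT arrays was tested two-sided by lmFit and eBayes of limma 3.58.1 (R 4.3.3), with 2 residual and 2.69 prior degrees of freedom. Benjamini-Hochberg adjustment covered all 45037 probe sets at a threshold of 0.05, and the fit was checked on simulated data. The number of arrays limits the precision. The labels number mice 1 and 2 but tie no TG mouse to a WT mouse. The family, its roles, the gene lists and the tests were chosen with earlier results of these data known. Values per array are given for the 10 brightest members, up to 10 non-overlapping members per direction, Trim24, Trim28, Trim33 and the erythroid and muscle members. In addition Trim32, Trim34a and, beside Trim13, 2 neighbouring genes are given, named after their values were seen. From each related list the 4 genes of smallest p are given, with Setdb1 added after its value was seen. Figures used matplotlib 3.10.9.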

Additional observations from a re-analysis of the deposited data

How the results depend on the processing

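Among the named members, 233 of 267 values under an alternative kept their direction and their side of the threshold, 23 newly passed and 11 changed sign. The count of TRIM genes called higher became 1 after quantile normalization and 1 after median centring, both times Trim13, where 1.93% and 1.36% of all probe sets passed, and was 0 with the replicate block, without dim probe sets, with a trended and robust eBayes, with probe sets averaged per gene and at an adjusted p of 0.10. Leaving out 1 array gave 0 to 3 called higher and 0 to 17 called lower, with the most without TG mouse 2, where the lone TG mouse 1 is assumed to vary like the WT mice and 42.4% of all probe sets passed (9.19% without TG mouse 1, 0 without either WT mouse). Non-overlapping genes numbered 17 higher after quantile normalization and 18 after median centring, and 12 to 27 higher and 18 to 29 lower without 1 array (23.9% to 43% and 37.7% to 61.8% of all genes), where a group of 1 overlaps less by construction. The median difference was 0.0086 after quantile normalization and 0.0213 after median centring (0.02 and 0.001 for all genes), and -0.1491 to 0.0689 without 1 array (0.0689 without TG mouse 1, 0.006 without WT mouse 1). Signs turned for Trim44 (0.0341), Trim33 (0.1536) and Trim39 (0.0841) after quantile normalization, for Trim33 (0.0366) after median centring, and for Trim44 (0.0989) and Trim33 (0.0385) with probe sets averaged. Without 1 array Trim44 ran from -0.3667 to 0.0894, Trim33 from -0.157 to 0.1228, Trim12c from -0.4789 to 0.0158, Trim39 from -0.2881 to 0.0763 and Trim63 from -0.0135 to 0.0992. The cause was not tested. With the mouse number as a replicate block no TRIM gene passed and the median was -0.03; deviations of arrays that share a number correlated at 0.01. The filter on dim probe sets left 31 of the 47 genes. Part of the tally of 267 values was fixed in advance. The replicate block and the trended and robust eBayes reuse the same differences, and so does the filter on dim probe sets. Averaging leaves genes with 1 probe set unchanged. The 233 values that stayed the same are therefore no measure of stability.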
